A study of Mus musculus with 74 samples.

Results

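The gut hormone genes described here are Gcg, Sst, Cck, Gip, Ghrl, Gast, Pyy, Nts, Sct and Tph1, which were taken by name from a table of read counts. All 10 were found, among 24015 gene symbols. The study asked how the epithelium of the mouse gut tube becomes stomach or intestine, and the count table holds 31 RNA-seq libraries in 15 groups, of 74 samples in the series (38 ATAC-seq and 5 ChIP-seq samples are not analysed here). Wild-type (WT) CD1 embryos gave 2 libraries each of forestomach, hindstomach and small intestine at embryonic days 12, 14 and 16 (E12, E14, E16; the intestinal cells at E12 and E14 are labelled midgut) and of small intestine at E18. Libraries labelled as lacking Cdx2, the homeobox factor that specifies intestinal epithelium, came from mice of a mixed B6;129 background. KO10 denotes the 3 E16 small intestine libraries of Cdx2f/f; Shh-Cre embryos, deleted at E10, with no treatment listed. KO13 denotes the 2 E16 libraries of Cdx2f/f; Villin-Cre embryos labelled as deleted at E13, and KO15 the 2 E18 libraries of the same genotype deleted at E15, both after 5 mg of tamoxifen by oral gavage. Embryonic controls differ from these in strain as well as genotype, and list no tamoxifen where KO13 and KO15 had it, so strain, tamoxifen and Cdx2 deletion cannot be told apart there. The 4 adult libraries are of villi from the distal part of the intestine, 2 from Cdx2f/f mice given oil and 2 from Cdx2f/f; Villin-Cre mice given 1 mg of tamoxifen intraperitoneally on 5 days and killed 3 days after the last dose. Both adult groups carry the Cdx2f/f allele on the same mixed background, but tamoxifen, Cre and deletion go together there and cannot be told apart. Shh-Cre acts in the early endoderm and Villin-Cre in intestinal epithelium, so neither is confined to hormone cells. Epithelial cells at E12 to E16 were trypsinized and sorted by their surface protein Epcam, whereas villi at E18 and in adults were released with EDTA.

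Enteroendocrine cells are scattered, rare cells of the gut epithelium that release peptide hormones or serotonin in response to food, and they arise from progenitors that transiently express the transcription factor Neurog3. In the adult gut the hormones are zoned. Gastrin and ghrelin belong to the stomach, cholecystokinin, secretin and GIP to the upper small intestine, and neurotensin, peptide YY and the proglucagon products to the lower intestine, while somatostatin and serotonin cells occur along most of its length. Glucagon, somatostatin, ghrelin and peptide YY are also made by islet cells of the embryonic pancreas, which buds from the endoderm next to the stomach. These are bulk libraries, so fewer hormone cells and less hormone RNA per cell cannot be told apart.

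Total counts ran from 5970227 to 62463167 in the embryonic libraries, with both E16 forestomach libraries the shallowest, and from 14788004 to 23164522 in the adult ones. Levels are given in CPM, which are counts scaled to a common library total, and 3 counts are taken as the floor below which a gene is not told from absence. The labels do not say that replicates came from separate animals, so p-values measure a spread between libraries that may be technical. For embryonic comparisons this spread was estimated over all 27 embryonic libraries in 13 groups, not over the compared groups alone. A gene was called where edgeR's quasi-likelihood test gave a Benjamini-Hochberg adjusted p below 0.05 over all genes tested and a log2 fold change of at least 1 in size, and errors of log2 fold changes are standard errors (SE). A fitted log2 value for a group left with no count, as some become when a library is left out, is no bound. Leaving out 1 library of a group of 2 leaves 1 there, and the spread then comes from the other groups of the fit. A call kept in such a fit is therefore no measure of replication within that group. Counting noise alone would give a chi-square of about 1 per degree of freedom between replicates. It was 1.53 for the E18 WT pair, 2.48 for KO13 and 5.02 for KO15, against 9.39 to 131.77 in the other pairs, so these 3 pairs were closer to repeat counts of 1 sample than the others were.

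Several libraries went against their labels, and results that rest on them are given with that limit. Cdx2 itself was lower in KO10, at 16.8, 13.97 and 26.7 CPM against 184 and 204 CPM in E16 small intestine. In the other libraries labelled as deleted it was not lower. It stood at 197 and 202 CPM in KO13, at 359 and 343 CPM in KO15 against 186 and 193 CPM in E18 WT, and at 729 and 698 CPM in adult KO ileum against 340 and 346 CPM in its WT. These counts are of the whole gene, and which exons the allele removes is not given in the sources used here, so they check nothing about the deletion. The libraries labelled E12 hindstomach had 143 and 150 CPM of Hoxb13, a posterior homeobox gene that was at most 0.565 CPM in all 29 other libraries, and Cdx2 at 110 and 152 CPM, beside 144 and 109 CPM in E12 small intestine. Hoxb13 was chosen after its values were seen. KO13 libraries had a mean rank correlation over genes of 0.957 with KO15, 0.933 with E18 WT and 0.935 with adult KO. It was 0.841 with the E16 small intestine libraries of their own labelled day, so the labelled day of KO13 is in doubt. E18 WT, released with EDTA, had 0.948 with adult WT but 0.826 with E16 small intestine. Whether this likeness follows day, cell release or cell make-up was not tested.

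Markers of other cell types varied widely, as the plot of marker list levels shows. The summed level of 12 pancreas genes was 1650 to 1840 CPM in E16 hindstomach, 726 to 755 in E14 hindstomach, 485 to 512 in E16 small intestine, 278 in both E12 small intestine libraries, 193 to 218 in E14 small intestine and 96.3 to 112 in E12 forestomach, and at most 27.8 in E18 WT, KO15 and adult WT, where Ins1, Ins2, Nkx6-1, Ptf1a and Cpa1 had no count. The enteric neuron and glia list of 10 genes summed to 1010 CPM in both E16 hindstomach libraries against 104 to 113 in E16 small intestine. Muscle and mesenchyme genes, 8 in all, summed to 19600 to 25300 CPM in E16 forestomach, 5680 to 5910 in E16 hindstomach and 1080 to 1170 in E16 small intestine, and 5 epithelial genes to only 750 to 808 in E16 forestomach against 2530 or more in every other library. The part of these cells in the hormone results was not tested.

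**Figure D1:**
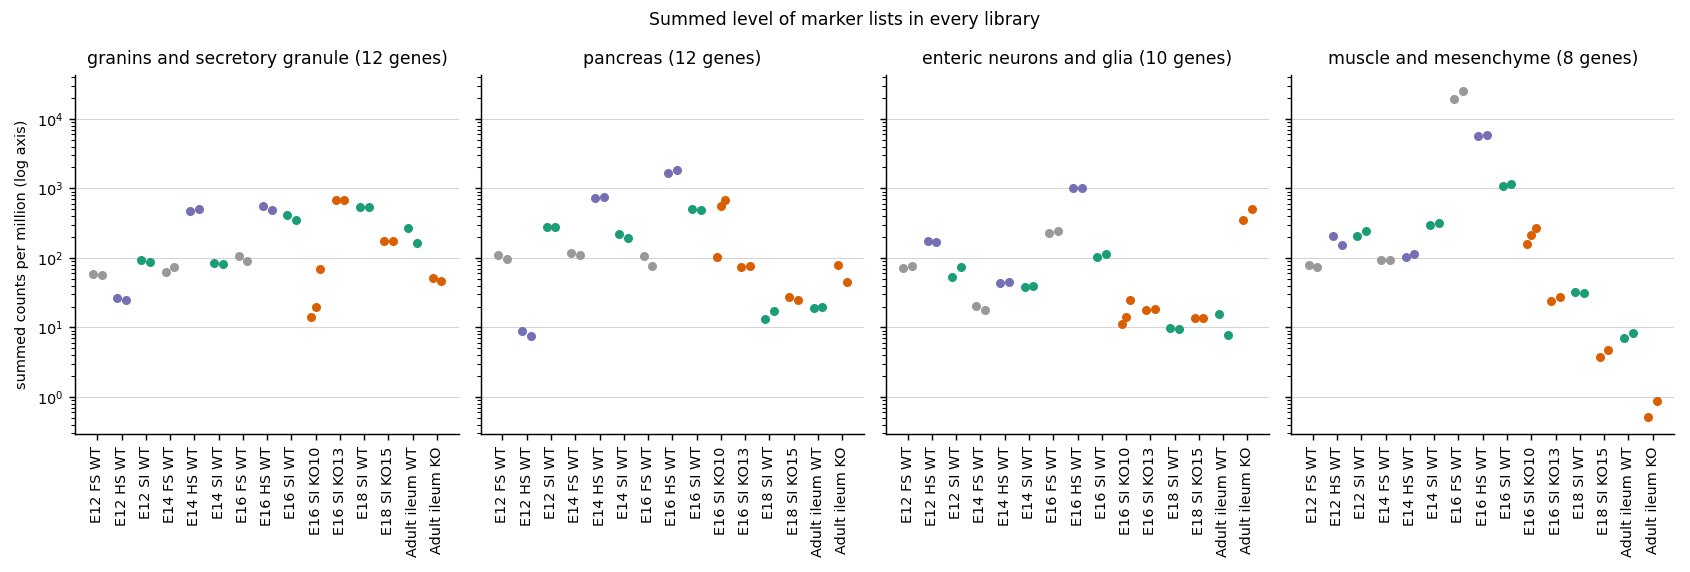
Summed level of 4 marker lists (granins and secretory granule, pancreas, enteric neurons and glia, muscle and mesenchyme) in each of 31 libraries; the y axis is summed CPM on a log axis, the x axis the 15 groups, and each point 1 library (grey forestomach, purple hindstomach, green small intestine and adult ileum WT, orange libraries labelled Cdx2-deleted). Pancreas genes reach 1650 to 1840 CPM in E16 hindstomach, the highest of all groups, and muscle and mesenchyme genes 19600 to 25300 CPM in E16 forestomach.

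Cck, Gip, Nts and Sct are 4 of the 5 hormone genes (the other is Tph1) that were called lower in the KO10, KO15 and adult KO libraries alike, so the 250 bases before their RefSeq start sites (GRCm38.p6, from a RefSeq promoter table, whereas the submitters' processing notes name mm9) are shown. Capitals mark matches on either strand to TTTATNG, letters known as a binding motif of Cdx factors, to AGATAA, known for factors of the Gata family, or to the E-box CAGCTG, known for basic helix-loop-helix factors.
Cck, chr9:121495695-121495944, minus strand: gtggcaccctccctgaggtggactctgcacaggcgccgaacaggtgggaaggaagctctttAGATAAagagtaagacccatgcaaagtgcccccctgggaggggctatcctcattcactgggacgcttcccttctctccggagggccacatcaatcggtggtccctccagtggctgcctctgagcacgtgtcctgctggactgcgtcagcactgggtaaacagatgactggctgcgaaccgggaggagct
Gip, chr11:96024295-96024544, plus strand: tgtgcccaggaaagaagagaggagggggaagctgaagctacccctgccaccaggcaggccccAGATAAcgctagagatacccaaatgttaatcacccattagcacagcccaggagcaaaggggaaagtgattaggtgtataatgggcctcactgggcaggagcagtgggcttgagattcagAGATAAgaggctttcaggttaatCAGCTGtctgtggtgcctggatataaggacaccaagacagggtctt
Nts, chr10:102490419-102490668, minus strand: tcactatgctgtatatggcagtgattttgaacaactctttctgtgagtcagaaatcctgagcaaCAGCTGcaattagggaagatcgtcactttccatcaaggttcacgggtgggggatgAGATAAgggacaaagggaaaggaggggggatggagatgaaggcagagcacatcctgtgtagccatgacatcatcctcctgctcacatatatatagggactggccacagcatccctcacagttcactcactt
Sct, chr7:141279134-141279383, minus strand: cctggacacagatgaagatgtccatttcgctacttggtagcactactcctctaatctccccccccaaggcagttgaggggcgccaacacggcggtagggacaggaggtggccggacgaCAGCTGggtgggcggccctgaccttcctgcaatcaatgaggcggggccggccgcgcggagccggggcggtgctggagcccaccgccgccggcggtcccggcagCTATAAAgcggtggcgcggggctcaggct
TTTATNG was found in 1 of the 10 hormone genes, Sct, where the match lies 29 to 23 bases before the start and overlaps the letters TATAAA, which also form a TATA box. It is in 9.8% of the 32851 promoters of the table. AGATAA was found in Cck (189 bases before the start), Gip (188 and 69 bases) and Nts (131 bases), 3 of 10 hormone genes, against 10% of all promoters. CAGCTG was found in Ghrl, Gip, Nts and Sct, 4 of 10, against 13% of all promoters. These are matches of letters in a short window and not sites of binding, and the 10 genes have 15 start sites in the table, so a gene with more of them had more chances to match.

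Gast encodes gastrin, which drives acid secretion. Its level was 8.92 and 10.99 CPM in E14 hindstomach and 24.6 and 20.1 CPM in E16 hindstomach. In small intestine it was 0.128 and 1.33 CPM at E12, 1.41 and 1.38 CPM at E14 and 0.236 and 0.256 CPM at E16, and no count was found at E18 or in any adult library. Hindstomach at E14 and E16 was thus above every other WT library. At E16 the hindstomach level was higher than in intestine by 6.47 ± 1.13 on the log2 scale (adjusted p = 0.000247, edgeR). At E14 the difference of 2.84 ± 0.89 was not called (adjusted p = 0.0505).

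Ghrl encodes ghrelin, the appetite-raising hormone of the stomach, and was as high in small intestine as in hindstomach at E16. It was 12.3 and 11.3 CPM in E14 hindstomach and 37.2 and 52.4 CPM at E16, and in small intestine 0 and 0.212 CPM at E12, 4.32 and 4.03 CPM at E14, 37.2 and 57.6 CPM at E16 and 72.0 and 83.0 CPM at E18. The E16 ranges of both organs overlap, with a log2 difference of -0.09 ± 0.54 (adjusted p = 0.928). In adult WT ileum, the lower end of the intestine, Ghrl was 3.78 and 3.17 CPM, from another library kit.

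Sst encodes somatostatin, which restrains the release of other hormones. It was at most 1.08 CPM in every library of E12 and E14. By E16 it stood at 63.7 and 46.4 CPM in hindstomach and 26.5 and 27.7 CPM in small intestine, with 1.93 CPM in 1 E16 forestomach library and none in the other. The hindstomach libraries were above the intestinal ones without overlap, but the difference of 1.01 ± 0.87 (log2) was not called (adjusted p = 0.382).

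Cck, Gip and Sct encode cholecystokinin, which empties the gallbladder, the incretin GIP, and secretin, which draws bicarbonate from the pancreas. Cck in small intestine was 1.37 and 3.96 CPM at E12, 4.77 and 4.18 CPM at E14, 84.5 and 96.2 CPM at E16 and 87.9 and 94.0 CPM at E18. Hindstomach had 13.6 and 14.8 CPM at E14, above the intestine, and 18.8 and 18.9 CPM at E16, below it. Gip in small intestine went from 0 and 0.242 CPM at E12 through 2.44 and 1.98 CPM at E14 to 30.3 and 27.2 CPM at E16 and 64.5 and 57.1 CPM at E18, and was between 0.503 and 1.28 CPM in hindstomach at E14 and E16. Sct was already present at E12, with 17.2 and 19.2 CPM in small intestine, then 12.9 and 10.3 CPM at E14, 193 and 175 CPM at E16 and 80.3 and 84.9 CPM at E18. In hindstomach Sct was 4.395 and 5.44 CPM at E14 and 24.5 and 12.4 CPM at E16. In the RefSeq table Cck overlaps the noncoding gene Gm38661, and the strand setting of the counting is not given in the sources used here, so Cck counts may hold reads of that gene.

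Tph1, the enzyme that starts serotonin synthesis in enterochromaffin cells, was at most 0.590 CPM in every E12 and E14 library. It reached 10.7 and 11.7 CPM in E16 small intestine and 44.8 and 48.4 CPM at E18, and 8.43 and 1.93 CPM in E16 hindstomach, whose libraries lay far apart. In the deposited table the adult columns are shifted over the stretch that holds Tph1. As deposited the adult Tph1 cells read 24, 36, 108 and 23 counts in WT 1, WT 2, KO 1 and KO 2, and after blank cells were closed up they read 174, 122, 46 and 29 counts, which turns the direction of the adult comparison. Over the 1676 genes between the blanks, the rank correlation of each adult library with each E18 WT library was 0.28 to 0.295 as deposited and 0.929 to 0.962 after closing up. The other 9 hormone genes lie outside the shifted stretch.

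Nts encodes neurotensin, a peptide of the lower small intestine. It was at or under 3 counts in every E12 small intestine and forestomach library and in every E14 library, and stood at 10.01 and 8.80 CPM in E16 small intestine and 11.3 and 8.61 CPM at E18. E16 hindstomach had 0.378 and 0.288 CPM. Adult WT ileum had 137 and 89.6 CPM.

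Gcg, which encodes proglucagon (glucagon, GLP-1 and GLP-2), and Pyy, which encodes peptide YY, were already above the floor at E12. Gcg was 259 and 235 CPM in E12 forestomach, 164 and 180 CPM in E14 hindstomach and 84.2 and 74.1 CPM in E12 small intestine. It was then 58.2 and 51.9 CPM in small intestine at E14, 38.7 and 39.1 CPM at E16 and 18.2 and 20.5 CPM at E18. Pyy was 90.9 and 81.1 CPM in E12 forestomach, 84.5 and 94.2 CPM in E12 small intestine and 50.7 and 54.6 CPM in E14 hindstomach, and in small intestine it was 15.6 and 14.5 CPM at E14, 19.0 and 18.9 CPM at E16 and 1.07 and 1.44 CPM at E18. Adult ileum had 23.8 and 39.7 CPM of Pyy and 16.3 and 17.96 CPM of Gcg. Gcg was 27.7 and 32.8 CPM in E16 hindstomach, where the pancreas list is at 1650 to 1840 CPM. In E12 forestomach the pancreas list was at 96.3 to 112 CPM. Pdx1, of the endocrine transcription factor list, was 26.2 and 23.4 CPM there, against 1.58 and 3.50 CPM in E14 forestomach. A list of 3 forestomach genes summed to 167 to 194 CPM in the E12 forestomach libraries. Whether these libraries hold cells of other regions was not tested.

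**Figure D2:**
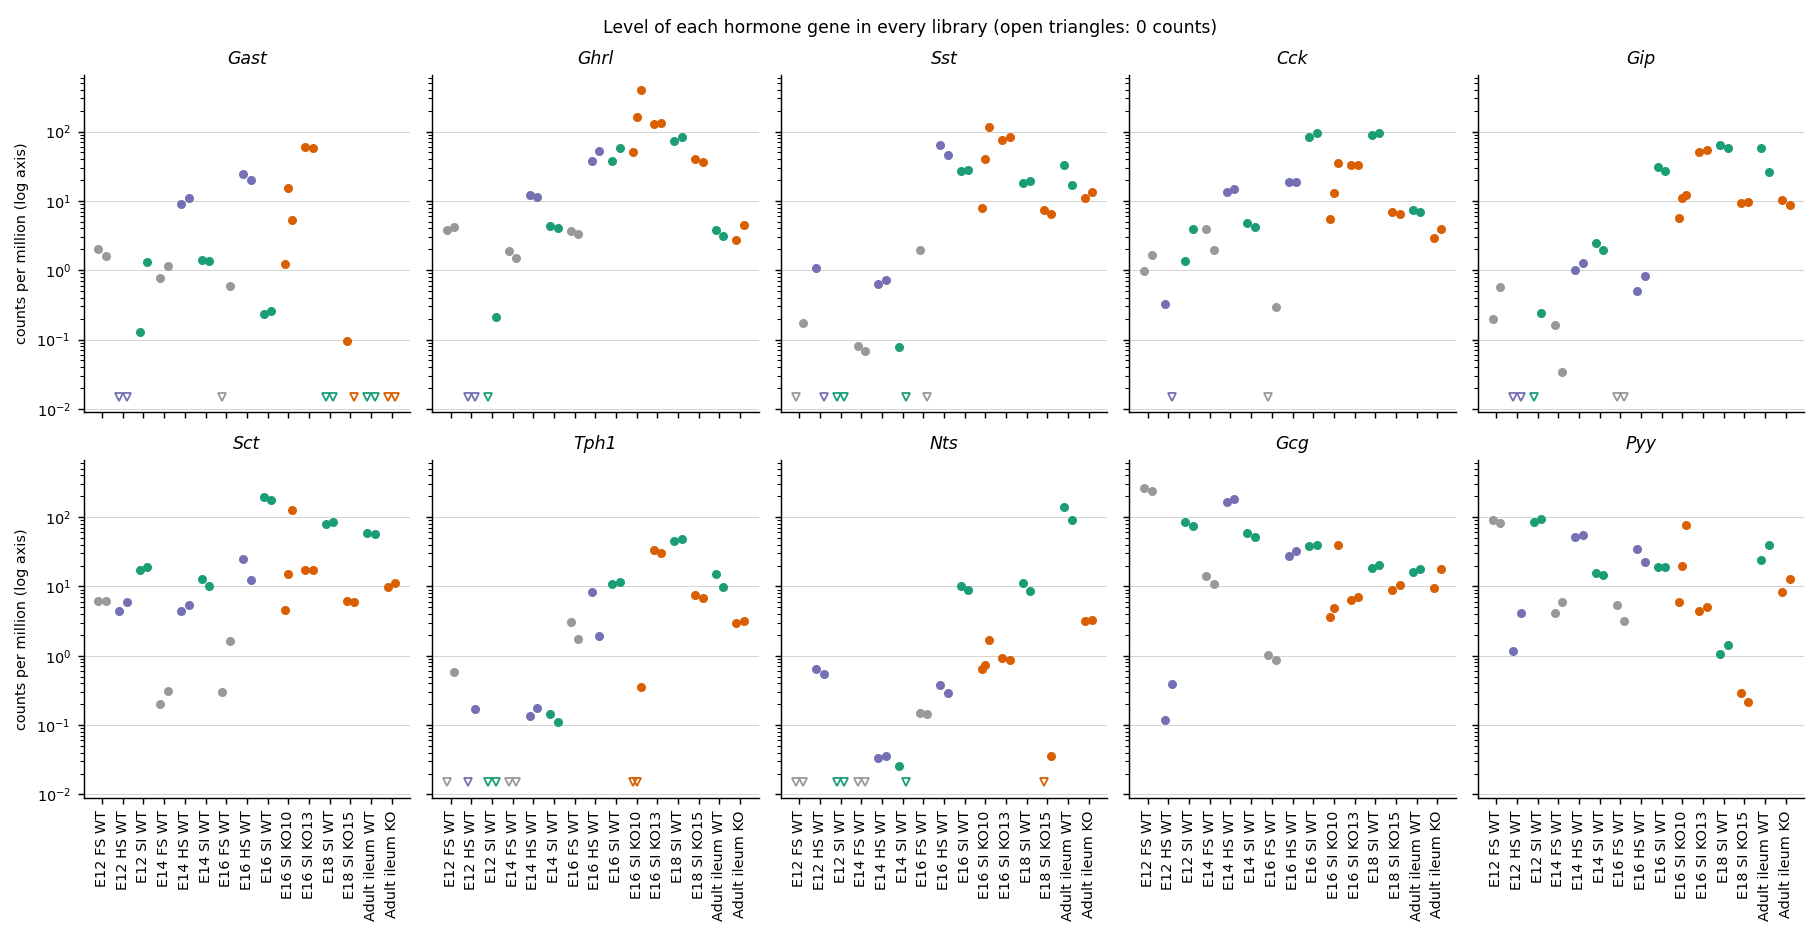
Level of each of the 10 hormone genes in every library; the y axis is CPM on a log axis shared by all panels, the x axis the 15 groups, each point 1 library, and open triangles at the bottom mark libraries with 0 counts (grey forestomach, purple hindstomach, green small intestine and adult ileum WT, orange libraries labelled Cdx2-deleted). Gcg reaches 259 and 235 CPM in E12 forestomach and is 0.117 and 0.397 CPM in the libraries labelled E12 hindstomach, and in small intestine Sst, Tph1 and Nts are at most 0.142 CPM at E12 and E14 and at least 8.80 CPM at E16.

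The first question was when the intestine acquires its hormones. From E14 to E16, 7 of the 10 hormone genes rose in small intestine and none fell (13.7% of the 17239 genes tested rose and 11.9% fell, 25.6% in all): Sst, Nts, Tph1, Cck, Sct, Gip and Ghrl. Nts rose from 2 counts in the E14 libraries to 384 at E16, a ratio of 491 (95% counting interval 135 to 4071, which covers counting error only). Tph1 rose by a log2 fold change of 6.38 ± 1.09 (adjusted p = 0.000184), Cck by 4.35 ± 0.69 (5.86e-05), Sct by 4.00 ± 0.88 (0.00131), Gip by 3.71 ± 0.53 (3.11e-05) and Ghrl by 3.51 ± 0.60 (0.000153). The Sst fold change of 8.83 ± 1.41 (adjusted p = 7.74e-05) starts from 0.0776 and 0 CPM at E14. Gcg and Pyy were not called, at -0.49 ± 0.60 and 0.35 ± 0.66, nor was Gast at -2.47 ± 1.08 (adjusted p = 0.0792). The median of the 10 was 3.85, against -0.08 over all genes tested. Each of the 7 calls held without any 1 library. Without E14 small intestine replicate 1 no E14 count of Sst or Nts was left, and the fitted values of 12.33 and 10.80 are no bounds.

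Other genes of the hormone cell changed with them. Of 12 granins and secretory granule genes 8 rose and 1 fell, led by Vgf at 6.04 and Scg2 at 4.18, and Chga, the granule protein chromogranin A, rose by 2.51 on the log2 scale. Pcsk1, the convertase that cuts prohormones, rose by 2.43. Of 6 tested serotonin and histamine genes 4 rose, among them Hdc, which makes histamine, by 5.39, and the vesicle amine carrier Slc18a1 by 3.06. Of 18 endocrine transcription factors 1 rose (Lmx1a, 4.43) and 5 fell, with Foxa2 at -3.46 and Rfx6 at -2.49, and Neurog3 was not among the called ones, at 18.2 and 13.01 CPM at E14 and 10.6 and 6.60 CPM at E16. The neuropeptide gene Vip rose as well, by 7.86, and Grp, with no count at E14, by at least 5.44-fold, while the pancreas list went from a summed 193 to 218 CPM at E14 to 485 to 512 CPM at E16, the enteric neuron and glia list from 37.7 to 40.0 CPM at E14 to 104 to 113 CPM at E16 and the muscle and mesenchyme list from 295 to 322 CPM to 1080 to 1170 CPM, and the blood and immune list from 77 to 78.7 CPM to 248 to 255 CPM.

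Between E12 and E14 in small intestine, 2 hormone genes rose and 1 fell (11.3% of all genes rose and 4.89% fell, 16.2% in all). Ghrl rose by 5.21 ± 0.96 (adjusted p = 0.000608) and Gip by 4.12 ± 0.68 (0.000294), both from libraries with few or no reads at E12, and neither was called in a fit of only these 2 groups (adjusted p = 0.138 and 0.22). Pyy fell by 2.57 ± 0.68 on the log2 scale (0.0084). From E12 to E14 the pancreas list went from 278 CPM to 193 to 218 CPM (3 of 12 genes higher, 3 lower). The muscle and mesenchyme list went from 209 to 245 CPM to 295 to 322 CPM (5 of 8 genes higher, 1 lower). Of 6 tested blood and immune genes 3 were higher and none lower. The Pyy call was lost without either E14 library (adjusted p = 0.0549 and 0.0774). Without E12 replicate 2, which holds all E12 reads of them, Gip became 8.82 and Ghrl 9.73, and without E12 replicate 1 they became 3.19 and 4.28. From E16 to E18, 1 rose and 1 fell, against 20.1% and 22.1% of all genes, 42.1% in all. Pyy fell by 3.88 ± 0.82 (log2, adjusted p = 0.000491). Tph1 rose by 2.06 ± 0.84 (0.0449), a call lost when any 1 of the 4 libraries was left out (adjusted p = 0.118 to 0.167). Cell release differed between E16 (trypsin and sorting) and E18 (EDTA), so age and preparation cannot be told apart there. Over the same days the pancreas list went from 485 to 512 CPM to 13.2 to 17.5 CPM (7 of 12 genes lower), the neuron and glia list from 104 to 113 CPM to 9.43 to 9.95 CPM (7 of 10) and the muscle and mesenchyme list from 1080 to 1170 CPM to 31.6 to 32.2 CPM (7 of 8).

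Hindstomach shared part of this course. From E14 to E16, 4 of 10 hormone genes rose and 1 fell there (16.5% of all genes rose and 5.5% fell, 22% in all): Sst by 6.35 ± 1.15 (adjusted p = 0.000363), Tph1 by 5.02 ± 1.08 (0.00179), Nts from 2 to 16 counts, a ratio of 9.65 (counting interval 2.27 to 86.6), and Ghrl by 1.92 ± 0.56 (0.0126) rose, and Gcg fell by 2.51 ± 0.62 on the log2 scale (0.00431). Cck, at 0.41 ± 0.61, and Gip, at -0.77 ± 0.58, were not called. The Ghrl call was lost without E14 replicate 1 or 2 or E16 replicate 2 (adjusted p = 0.0740, 0.0878 and 0.0769) and the Nts call without E14 replicate 1 or 2 or E16 replicate 1 (0.0890, 0.0779 and 0.0530). Tph1 became 3.60 without E16 replicate 1 and 5.72 without replicate 2. Over the same days the pancreas list in hindstomach went from 726 to 755 CPM to 1650 to 1840 CPM, the neuron and glia list from 44.2 to 44.4 CPM to 1010 CPM, the muscle and mesenchyme list from 104 to 113 CPM to 5680 to 5910 CPM, and the blood and immune list from 14.4 to 15.6 CPM to 1140 to 1590 CPM.

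The change from E14 to E16 was tested for a difference between organs in an interaction term, in which 3.92% of genes had a higher value in small intestine and 9.17% a lower value, 13.1% in all. It was larger in small intestine for 3 of 10 hormone genes, Gip by 4.48 ± 0.77 (log2, adjusted p = 0.000642), Cck by 3.94 ± 0.89 (0.00443) and Nts by 5.62 ± 1.45 (0.0143), and smaller for none. The Nts call was lost without E14 hindstomach replicate 1 or 2 (adjusted p = 0.122 and 0.127), and it rests on 2 counts at E14 in each organ; its fitted value was 7.72 without E14 small intestine replicate 1. For Sst (2.48 ± 1.83), Tph1 (1.36 ± 1.53), Ghrl (1.59 ± 0.78), Sct (2.09 ± 1.15, adjusted p = 0.245) and Gcg (2.02 ± 0.85, adjusted p = 0.118) a difference between organs was not called, nor was one for Gast or Pyy. The count of 3 became 6 with the replicate block and 9 in a fit of only these groups.

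**Figure D3:**
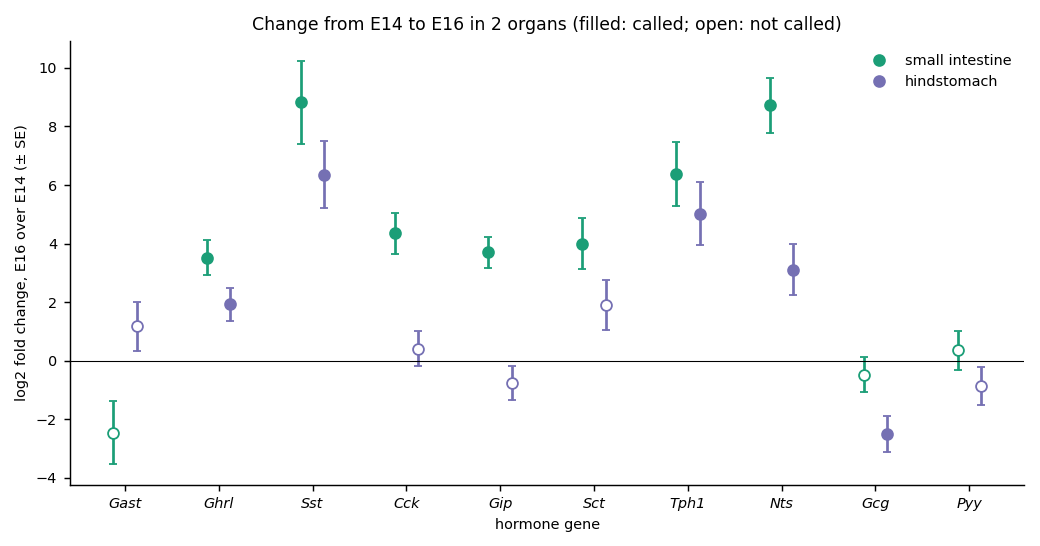
Change from E14 to E16 of each hormone gene in small intestine (green) and hindstomach (purple); the y axis is the log2 fold change of E16 over E14 with its SE as bars (2 libraries a group), and filled points were called. Sst and Tph1 are filled and above 0 in both organs, Cck, Gip and Sct are filled in small intestine and open in hindstomach, and Gcg is filled below 0 in hindstomach and open in small intestine; of these 4 the difference between organs was called for Cck and Gip.

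The second question was how the organs differ on 1 day. At E16, against small intestine, hindstomach had 1 hormone gene higher (Gast, above) and 4 lower. Of all genes 17.5% were higher and 8.1% lower, 25.7% in all. The log2 fold change was -5.44 ± 0.60 for Gip (adjusted p = 1.95e-06), -4.81 ± 0.75 for Nts (0.000101), -3.33 ± 0.86 for Sct (0.00482) and -2.27 ± 0.63 for Cck (0.00784). Gcg, Sst, Ghrl, Pyy and Tph1 were not called, and the median of the 10 was -0.75 against 0.18 over all genes. The Cck call was lost without either hindstomach library (adjusted p = 0.0569 and 0.0550) and the Sct call without hindstomach replicate 2 (0.0624).

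Granule and processing genes in E16 hindstomach are given beside a pancreas list at 1650 to 1840 CPM against 485 to 512 CPM (8 of 12 genes higher) and a muscle and mesenchyme list at 5680 to 5910 CPM against 1080 to 1170 CPM (7 of 8 higher). Of 12 granins and secretory granule genes 5 were higher in hindstomach (Syp and Snap25 the most, by 3.32 and 3.28) and 1 lower (Chgb, -1.54). Pcsk2, the convertase that releases glucagon from proglucagon, was higher by 5.12, and Mboat4, the acyltransferase that activates ghrelin, by 2.52. Of the receptors, Cckbr, through which gastrin and cholecystokinin act on the stomach, was at least 37.8-fold higher, with no count in intestine, and Cckar was higher by 2.48. Of 6 tested serotonin and histamine genes Slc6a4 (-3.82) and Slc18a1 (-3.27) were the lowest and Slc18a2 (3.33) and Hdc (1.99) were higher. Of 13 tested other peptide genes 6 were higher. Among them, Npy was at 90 counts against 1 (a ratio of 76.1, counting interval 13.3 to 3037) and Grp at a log2 fold change of 4.89. Beside these, the neuron and glia list was at 1010 CPM in hindstomach and 104 to 113 CPM in intestine.

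At E14 none of the 10 was called in hindstomach against small intestine (3.49% of all genes were higher and 3.35% lower, 6.83% in all), with 6 at an unadjusted p below 0.05 in edgeR and 3 called by DESeq2. A fit of only these 2 groups called 7 and the replicate block 6, so the count of 0 depends on the fit. The estimates were above 0 for 8 of the 10, highest for Sst at 3.49 and Gast at 2.84, and below 0 for Gip and Sct, at -0.96 ± 0.52 and -1.24 ± 0.83. Of 18 endocrine transcription factors 5 were higher in hindstomach and none lower, and 6 of 12 granule genes higher and none lower, with Neurog3 at 85.9 and 84.0 CPM against 18.2 and 13.01 CPM. The pancreas list stood at 726 to 755 CPM against 193 to 218 CPM.

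At E12 the libraries labelled hindstomach had 4 hormone genes lower than small intestine and 1 higher. Of all genes tested 3.67% were lower and 5.6% higher, 9.28% in all. Gcg was 0.117 and 0.397 CPM against 84.2 and 74.1 CPM, a log2 fold change of -8.24 ± 0.91 (adjusted p = 4.81e-06), and Pyy 1.17 and 4.11 CPM against 84.5 and 94.2 CPM, at -5.08 ± 0.78 (0.000208). Cck was at -4.03 ± 0.90 (0.00528), Gast was at least 8.44-fold lower, and Nts, at 0.643 and 0.538 CPM, was at least 6.34-fold higher than the floor of small intestine. In a fit of only these 2 groups Cck and Nts were not called (adjusted p = 0.46 and 0.292). Neurog3 and Neurod1 had no count in these libraries, and 4 pancreas genes, Cpa1 among them, had none either, while Cpa1 was at 215 CPM on average in E12 small intestine. The same libraries carry the posterior gene Hoxb13, so these values, and those of the next comparison, describe libraries labelled hindstomach rather than a checked organ. Set against these libraries, E14 hindstomach had 6 hormone genes higher and 1 lower (10.8% of all genes were higher and 6.46% lower, 17.2% in all). Gcg was higher by 9.36 ± 0.94, Ghrl by at least 137-fold and Gast by at least 115-fold. Nts was lower, from 41 to 2 counts (a ratio of 17.1, counting interval 4.45 to 146). Beside them 11 of 12 pancreas genes were higher, with the list at 726 to 755 CPM against 7.48 to 8.94 CPM. Left out in turn, E12 hindstomach replicates 1 and 2 moved Gcg to -7.62 and -9.35, Pyy to -4.44 and -6.26 and Cck to -9.08 and -3.04 (adjusted p = 0.0639) against small intestine, and Gcg to 8.75 and 10.47, Pyy to 3.68 and 5.50 and Cck to 11.48 and 5.45 in E14 against E12. The Gast call against small intestine was lost without either of them or without E12 small intestine replicate 2 (adjusted p = 0.0955, 0.103 and 0.211), and without the last Gast was -4.75 and Cck -3.08.

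Forestomach, which becomes a keratinized squamous lining, was low in hormone RNA at E16. At E16 it had 8 of 10 hormone genes lower than small intestine (16.4% of all genes were lower and 18.6% higher, 35% in all) and 8 lower than hindstomach (13.8% lower and 6.27% higher, 20.1% in all), and none higher in either. Both comparisons share the forestomach libraries. Gcg was 1.04 and 0.877 CPM, against 38.7 and 39.1 CPM in intestine (log2 fold change -5.37 ± 0.93, adjusted p = 9.62e-05), Ghrl 3.70 and 3.36 CPM (-3.77 ± 0.69, 0.000189) and Pyy 5.33 and 3.22 CPM (-2.18 ± 0.77, 0.0254). Gip had no count and was at least 65.2-fold lower than in intestine. Cck and Nts had 2 counts each in all, against 3669 and 384 counts in intestine, ratios of 612 (counting interval 169 to 5057) and 64.1 (17.6 to 531). Gast and Tph1 were the 2 not called against intestine, and Nts and Tph1 against hindstomach. E16 forestomach libraries also had the lowest epithelial sum and the highest muscle sum of all, as given above. The blood and immune list was at 13800 to 18600 CPM there, against 248 to 255 CPM in E16 small intestine and 1140 to 1590 CPM in E16 hindstomach. Chga was 22.4 and 25.0 CPM in E16 forestomach. The pancreas list was at 77.8 to 106 CPM there, with 7 of 12 genes lower and 1 higher than in hindstomach, and 5 lower and 3 higher than in intestine. The neuron and glia list was at 226 to 247 CPM, with 6 of 10 genes lower than in hindstomach and 2 higher than in intestine. The Pyy call against intestine was lost without any 1 of the 4 libraries (adjusted p = 0.0602 to 0.155). Against hindstomach the calls lost were Gip without forestomach replicate 1 or 2 or hindstomach replicate 2 (0.118, 0.109 and 0.0737), Sct without forestomach replicate 1 or hindstomach replicate 1 (0.104 and 0.0504) and Pyy without forestomach replicate 2 or hindstomach replicate 1 (0.0887 and 0.0557). Forestomach replicates 1 and 2, left out in turn, moved Sst to -12.49 and -3.85, Cck to -8.27 and -14.22 and Sct to -6.86 and -9.29 against intestine, and Sst to -13.50 and -4.86, Cck to -6.00 and -11.95, Gast to -5.26 and -12.20 and Sct to -3.53 and -5.96 against hindstomach.

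The third question was what the hormone genes do in the libraries labelled Cdx2-deleted. In 3 comparisons with separate controls, KO10 at E16, KO15 at E18 and adult KO ileum, 5 of the 9 hormone genes tested in each were lower every time: Cck, Gip, Nts, Sct and Tph1. Of the 12408 genes tested in all 3 comparisons, 413 (3.33%) were lower in all 3. Of these 5, Nts alone kept its call in all 3 comparisons without any 1 library. Sct in KO10, Tph1 in KO15 and Cck, Gip and Tph1 in adult ileum each lost theirs without at least 1 library, and Cck in adult ileum without any 1. None of the hormone genes was higher in all 3, against 168 genes (1.35%) over all. In KO13, which shares its controls with KO10, Cck, Gip and Tph1 were not called, while Nts and Sct were lower.

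KO10 libraries had 6 of 10 hormone genes lower than E16 small intestine and 2 higher. Of all genes 27.6% were lower and 23.9% higher, 51.5% in all, so that a call there is common. Cck was 5.42, 13.2 and 35.5 CPM against 84.5 and 96.2 CPM (-2.40 ± 0.55 on the log2 scale, adjusted p = 0.000924), Gip 5.74, 10.98 and 11.99 CPM against 30.3 and 27.2 CPM (-1.64 ± 0.43, 0.00326), and Nts 0.645, 0.727 and 1.68 CPM against 10.01 and 8.80 CPM (-3.28 ± 0.60, 0.000159). Tph1 was 0, 0 and 0.360 CPM, 3 counts against 456 in WT, a ratio of 135 (counting interval 46 to 658). Sct was 4.58, 15.02 and 127 CPM against 193 and 175 CPM (-1.98 ± 0.71, 0.0213), and Gcg 3.61, 4.93 and 39.3 CPM against 38.7 and 39.1 CPM (-1.40 ± 0.56, 0.0367). For Gcg, KO10 replicate 3 lay above both WT libraries. Ghrl was 51.0, 161 and 398 CPM against 37.2 and 57.6 CPM (2.05 ± 0.53, 0.00235), and Gast 1.23, 15.3 and 5.27 CPM against 0.236 and 0.256 CPM (4.81 ± 1.07, 0.000779).

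KO10 replicate 3 stood apart in these genes. It was the highest of the 3 in 9 of the 10 hormone genes, all but Gast, and had 32.4 CPM of the granule gene Chgb against 2.13 and 7.67 CPM in replicates 1 and 2. Without it Gcg became -3.23 (adjusted p = 5.55e-10), Sct -4.28 (9.21e-08), Cck -3.33, Tph1 -11.21 and Ghrl 1.13. Without KO10 replicate 1 or 2 the Gcg value was -0.90 and -0.86 and no longer called (0.121 and 0.186), and without replicate 2 the Sct value was -1.45 (0.105) and the Gast value 3.69. Leaving out E16 WT replicate 1 or 2 ended the calls of Gcg (0.0949 and 0.0981) and Sct (0.0736 and 0.0535), as did a fit of only the 2 groups (0.19 and 0.123), and leaving out KO10 replicate 1 or 2 moved Tph1 to -6.22 and -6.31.

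Of 18 endocrine transcription factors 9 were lower in KO10 and 4 higher. Lmx1a, at 3 counts against 115, was lower by a ratio of 34.1 (counting interval 11.4 to 168), Etv1 had a log2 fold change of -3.90 and Neurog3 -2.32, while Foxa2 (3.89) and Pdx1 (2.59) were higher. Of 12 granins and secretory granule genes 10 were lower, with Vgf at 3 counts against 231 (a ratio of 68.5, counting interval 23.2 to 335) and Chgb at -4.46, and Chga was at -2.80 and the convertase gene Pcsk1 at -4.27. Of 6 tested serotonin and histamine genes 4 were lower and none higher, with Hdc at 2 counts against 303 and Slc6a4 at a log2 fold change of -5.08. The gastrin receptor gene Cckbr was at least 37.5-fold higher, with no count in WT, and the secretin receptor gene Sctr had none in KO10, at least 1.84-fold lower. Cldn18, a tight junction gene of the stomach, was 1157, 1233 and 1051 CPM against 2.55 and 1.48 CPM in E16 WT intestine, and the epithelial list summed to 10000 to 17100 CPM against 6950 to 7210 CPM. The sums of 3 other lists were below WT beside the hormones. Neuron and glia genes summed to 11.4 to 25 CPM against 104 to 113 CPM (7 of 10 lower), muscle and mesenchyme genes to 161 to 272 CPM against 1080 to 1170 CPM (6 of 8 lower) and blood and immune genes to 16.8 to 30.2 CPM against 248 to 255 CPM (4 of 6 tested lower). Pancreas genes summed to 103 to 675 CPM against 485 to 512 CPM, with 1 lower and 3 higher of 12.

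Against E16 hindstomach, KO10 libraries had 2 hormone genes higher and 1 lower (21.6% of all genes were higher and 34.6% lower, 56.3% in all). Gip was higher by 3.80 ± 0.56 (log2, adjusted p = 1.15e-05), its 3 KO10 values of 5.74 to 11.99 CPM lying above 0.503 and 0.822 CPM, and Ghrl by 2.14 ± 0.53 (0.00158), while Tph1 was lower by a ratio of 62.2 (counting interval 21 to 304). Gast was -1.65 ± 0.75 (0.0606) and Nts 1.53 ± 0.66 (0.0505), neither called. The KO10 level of Gip lay between those of WT intestine and WT hindstomach. Beside these values 9 of 10 neuron and glia genes, 8 of 8 muscle and mesenchyme genes and 7 of 12 pancreas genes were lower in KO10 than in hindstomach, and the epithelial list summed to 10000 to 17100 CPM against 4850 to 5070 CPM. Left out in turn, KO10 replicate 3 moved Ghrl to 1.22 and Tph1 to -10.09, hindstomach replicates 1 and 2 moved Tph1 to -4.44 and -6.57, and KO10 replicates 1 and 2 both moved it to -5.10.

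KO15 libraries had 5 of 10 hormone genes lower than E18 small intestine and none higher, where 9.7% of all genes were lower and 7.79% higher, 17.5% in all. Nts was 0 and 0.0353 CPM against 11.3 and 8.61 CPM, 1 count against 315, a ratio of 476 (counting interval 84.8 to 18866). Cck was 6.88 and 6.39 CPM against 87.9 and 94.0 CPM (-3.76 ± 0.68, adjusted p = 0.000274), Sct 6.26 and 5.90 CPM against 80.3 and 84.9 CPM (-3.75 ± 0.89, 0.00309), and Gip 9.31 and 9.57 CPM against 64.5 and 57.1 CPM (-2.67 ± 0.50, 0.000576). Tph1 was 7.40 and 6.85 CPM against 44.8 and 48.4 CPM (-2.70 ± 0.86, 0.0237). Ghrl, at 40.8 and 36.4 CPM against 72.0 and 83.0 CPM, Gcg, at 8.93 and 10.5 CPM against 18.2 and 20.5 CPM, and Sst, at 7.36 and 6.43 CPM against 17.98 and 19.4 CPM, were also below WT in both libraries but not called (-0.99 ± 0.54, -0.98 ± 0.63 and -1.43 ± 0.90). A fit of only these 2 groups called 9 hormone genes in place of 5. The Tph1 call was lost when any 1 of the 4 libraries was left out (adjusted p = 0.0840 to 0.154), and the Nts value was -7.94 without KO15 replicate 1 and -10.98 without replicate 2. The median of the 10 was -2.51, or -2.67 without Gast, which is at or under the floor in both groups, against 0 over all genes.

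In KO15, 5 of 12 granins and secretory granule genes were lower and none higher, with Pcsk1n at -4.41 and Scg2 at -3.19. Endocrine transcription factors were split, 3 lower (Pax4 at 1 count against 30, Neurod1 at -3.02) and 3 higher (Foxa2 at 2.52, Mnx1 at 1.80) of 18. Of the receptors, Glp1r was lower, at -5.12. The pancreas list was at 24.8 to 27.8 CPM against 13.2 to 17.5 CPM, with Cpa1, Ins1 and Ins2 at 0 in both groups, and the neuron and glia list at 13.5 to 13.6 CPM against 9.43 to 9.95 CPM, where 2 of its 10 genes were lower and 1 higher. The muscle and mesenchyme list went from 31.6 to 32.2 CPM in WT to 3.82 to 4.77 CPM in KO15 (1 of 8 genes lower) and the blood and immune list from 190 to 193 CPM to 8.93 to 10.2 CPM (1 of 6 tested genes lower).

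Adult KO ileum had 6 of 9 tested hormone genes lower and none higher, where 12% of 12444 genes were lower and 8.41% higher, 20.4% in all. Gast had no count in any of the 4 libraries. Nts was 3.13 and 3.23 CPM against 137 and 89.6 CPM, 38.8-fold lower (log2 fold change -5.28 ± 0.29, adjusted p = 0.00155). Sct was 9.84 and 11.1 CPM against 58.7 and 56.6 CPM (-2.59 ± 0.15, 0.00171), Gip 10.4 and 8.73 CPM against 56.9 and 26.0 CPM (-2.24 ± 0.41, 0.0182) and Tph1 2.94 and 3.13 CPM against 15.3 and 9.66 CPM (-2.16 ± 0.32, 0.0109). Pyy was 8.24 and 12.7 CPM against 23.8 and 39.7 CPM (-1.74 ± 0.36, 0.0239) and Cck 2.87 and 3.99 CPM against 7.29 and 6.96 CPM (-1.19 ± 0.30, 0.0374). Gcg (-0.46 ± 0.34), Ghrl (-0.07 ± 0.38) and Sst (-1.15 ± 0.37, adjusted p = 0.0681) were not called.

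With only 4 adult libraries, leaving out 1 often ended a call. Nts and Sct were called without any 1 of them. Cck was lost each time (adjusted p = 0.0791 to 0.162), Gip without KO replicate 1 or 2 (0.1 and 0.0992), Tph1 without KO replicate 1 or 2 (0.0778 and 0.0615) and Pyy without WT replicate 2 or KO replicate 1 or 2 (0.0690, 0.115 and 0.0613), and Gip became -1.57 without WT replicate 1. In a fit with all 31 libraries Cck, Pyy and Tph1 were not called (0.273, 0.0851 and 0.0735). Granins and secretory granule genes were lower in 8 of 11 tested, with Rab3c at 2 counts against 38 and Pcsk1n at -3.03, and Pcsk1 was lower, at -3.22. Of 10 tested endocrine transcription factors 6 were lower, with Neurod1 at -4.06 and Myt1 at -3.49, and 2 were higher, Pdx1 by 5.05 and Foxa1 by 1.505. The neuron and glia list was higher in adult KO, at 347 to 498 CPM against 7.76 to 15.7 CPM, with Uchl1, Sox10 and Chrna3 at 0 in both KO libraries. The muscle and mesenchyme list stood at 0.511 to 0.862 CPM in KO against 6.94 to 8.39 CPM in WT and the blood and immune list at 6.25 to 6.96 CPM against 30.7 to 67.4 CPM. Nearly all of the neuron and glia sum was 1 gene, Ret, at 346 and 497 CPM in KO and 14.9 and 6.81 CPM in WT. The pancreas list was at 45 to 79.4 CPM in KO against 19.3 to 19.9 CPM in WT, with Ctrb1 at 797 counts against 2.

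The libraries labelled KO13 shared their E16 small intestine controls with KO10, and stood apart as described above. They had 4 hormone genes lower and 2 higher (20.8% of all genes were lower and 18.7% higher, 39.5% in all). Gast was 60.5 and 57.3 CPM against 0.236 and 0.256 CPM (7.89 ± 1.18 on the log2 scale, adjusted p = 2.4e-05), above E16 hindstomach itself, and Ghrl 128 and 135 CPM against 37.2 and 57.6 CPM (1.49 ± 0.54, 0.0286). Nts was 0.922 and 0.871 CPM (-3.37 ± 0.69, 0.000626), Sct 16.97 and 17.3 CPM (-3.41 ± 0.86, 0.00259), Gcg 6.37 and 7.09 CPM (-2.52 ± 0.65, 0.00297) and Pyy 4.45 and 5.02 CPM (-1.99 ± 0.70, 0.0225). Gip, at 50.7 and 54.2 CPM against 30.3 and 27.2 CPM, was above both WT libraries and not called (0.88 ± 0.47). Tph1 too lay above WT, at 33.4 and 30.3 CPM against 10.7 and 11.7 CPM, and was not called (1.52 ± 0.82), and Cck lay below it, at 32.8 and 32.7 CPM against 84.5 and 96.2 CPM, and was not called (-1.45 ± 0.61, adjusted p = 0.053). Both Gip and Tph1 lay below the E18 WT libraries, at 64.5 and 57.1 CPM of Gip and 44.8 and 48.4 CPM of Tph1. Their direction against WT thus rests on the labelled day. So does that of the Pyy call, since mean Pyy was 4.74 CPM in KO13 and 1.25 CPM in E18 WT. The pancreas list stood at 75.2 to 75.5 CPM against 485 to 512 CPM (4 of 12 genes lower), the neuron and glia list at 18 to 18.3 CPM against 104 to 113 CPM (7 of 10), the muscle and mesenchyme list at 24.1 to 27.1 CPM against 1080 to 1170 CPM (8 of 8) and the blood and immune list at 40.7 to 42.2 CPM against 248 to 255 CPM (5 of 6 tested). Calls of Ghrl were lost without E16 WT replicate 1 or KO13 replicate 1 or 2 (adjusted p = 0.18, 0.0719 and 0.0861) and those of Pyy without any 1 of the 4 libraries (0.0581 to 0.113).

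Whether the difference from WT itself changed between KO10 and KO15 was tested in an interaction term, in which 19.7% of genes had a higher value in KO10 and 21.4% a lower value, 41.1% in all. It did so for 3 of 10 hormone genes, which is no larger a share than that over all genes. Nts was lowered less in KO10, by a difference of 5.36 ± 1.12 (log2, adjusted p = 0.000793), and Ghrl differed by 3.05 ± 0.75 (0.00236), being higher in KO10 and not called in KO15. Tph1 was lowered more in KO10 (-4.29 ± 1.49, 0.0243), a value that rests on 3 counts in KO10. The 2 deletions differ in day of deletion, Cre line, tamoxifen (listed for KO15 only), day of collection and cell release, which cannot be told apart. Without KO10 replicate 3 the Ghrl difference was 2.12 and the Tph1 difference -8.52, and the Tph1 call was lost without KO10 replicate 1 or 2 or E18 WT replicate 1 or 2 (adjusted p = 0.0758, 0.0743, 0.0735 and 0.0689); the Nts difference, which rests on 1 count in KO15, was 4.65 without KO15 replicate 1 and 7.75 without replicate 2.

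**Figure D4:**
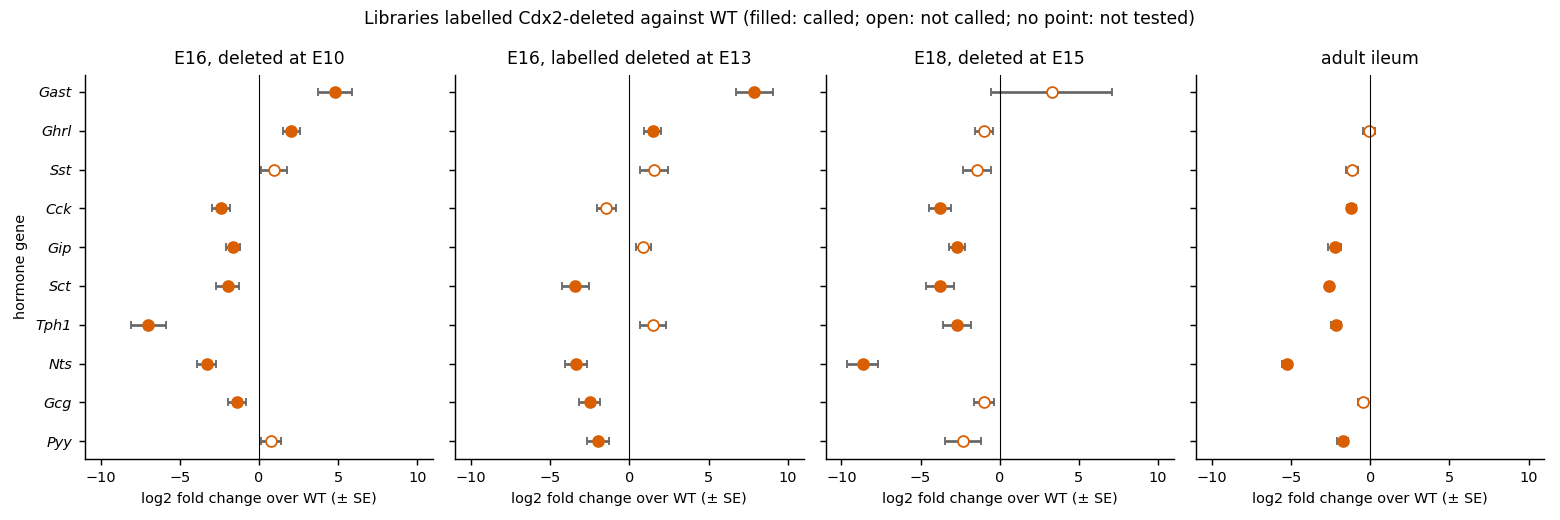
Log2 fold change of each hormone gene in libraries labelled Cdx2-deleted over their WT, with SE as bars; the panels are KO10 and KO13 at E16, KO15 at E18 and adult ileum, filled points were called, open points were not, and Gast was not tested in adults. Nts and Sct are filled and below 0 in all 4 panels, Ghrl and Gast are filled above 0 in both E16 panels, and those 2 panels share their WT libraries.

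Likeness of pattern was measured as the Pearson correlation r of group means of log2 CPM over the 15 groups with each of 17304 other genes, and the 3 most alike were taken; the groups differ in depth, kit and cell make-up, and r is a description. The genes nearest to Gcg were Neurod1 (r = 0.884) and Nkx2-2 (0.862), both endocrine transcription factors, and Cryba2 (0.843), which was also near Pyy (0.741) with P2rx1 (0.79) and Nkx6-2 (0.756). Nearest to Gast were Muc5ac (0.873), the mucin of surface cells of the stomach, Nkx6-3 and Kcne1 (both 0.869). Cck was most like Pipox (0.872), the granule gene Chgb (0.852) and Fam13a (0.829). Sst was most like Rep15 (0.954), A4gnt (0.938) and Klk1 (0.932), Gip like Aqp11 (0.972), 0610005C13Rik (0.957) and Ptgr2 (0.955), and Nts like Prss30 (0.914), Bcl2l15 (0.91) and Art2a-ps (0.891). Ghrl was most like Fitm2 (0.868), Gimap5 (0.867) and Selenbp1 (0.866), and Sct like Pla2g12b (0.838), Ms4a18 and Slc39a5 (both 0.837). The genes nearest to Tph1 were Ccr9 (0.967), Tap2 (0.962) and Gzmb (0.96). Among the hormone genes themselves, Gip and Cck (0.80), Gip and Sst (0.79), Cck and Ghrl (0.77) and Sst and Tph1 (0.77) were the closest pairs, and Gcg went with Pyy (0.64) rather than with Tph1 (-0.12) or Sst (-0.11).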

How the data were processed

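RNA was measured in 27 embryonic libraries made with a SMARTer ultra-low-input kit and 4 adult libraries made with a TruSeq kit, per the labels' protocols. The deposited table holds raw read counts per gene made by the authors. The submitters' processing notes name STAR 2.5.3a, HTSeq and mm9, without roles. Blank cells of the adult columns were closed up, and 2 columns that match no sample were not used. Of 24015 symbols, 22709 matched the RefSeq names table.

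Genes passing edgeR 4.0.16's filter (minimum count 10) were fitted with TMM factors and the quasi-likelihood test in R 4.3.3, with 13 embryonic groups in 1 fit (17239 genes) and the adult groups in another (12444 genes). CPM values use TMM factors over all 31 libraries. The scripts were tested on simulated data. Bounds use 3 counts per library, and counting intervals are exact binomial intervals (95%) that cover counting error only. Alternatives were RLE factors, no filter, DESeq2 1.42.0, a replicate block, no fold minimum, fits of only the groups compared, all 31 libraries in 1 fit, and leaving out each library. The members and lists were chosen with earlier results of these data known. Named genes are the 10 hormone genes, the 3 most like each, up to 2 called genes per list and direction with the largest change, a fixed set of processing and receptor genes, and markers of other cell types; Cdx2, Hoxb13 and Cldn18 were added to check labels, the last 2 after their values were seen.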

Additional observations from a re-analysis of the deposited data

Results flagged for a closer look

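Each of the results below is a difference between groups, found by an interaction term in edgeR's quasi-likelihood fit. Between small intestine and hindstomach, the change from E14 to E16 was larger in intestine for Cck by 3.94 ± 0.89 on the log2 scale (SE, adjusted p = 0.00443), for Gip by 4.48 ± 0.77 (0.000642) and for Nts by 5.62 ± 1.45 (0.0143). Between KO10 at E16 and KO15 at E18, the difference from WT differed for Ghrl by 3.05 ± 0.75 (adjusted p = 0.00236), for Nts by 5.36 ± 1.12 (0.000793) and for Tph1 by -4.29 ± 1.49 (0.0243). Both Nts values rest on groups with 1 or 2 counts, and the Tph1 value rests on 3 counts in KO10.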

How the results depend on the processing

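No call changed direction under any alternative run. Counts of called hormone genes that moved by over 1.5 times were as follows, and the cause was not tested beyond the settings themselves. For hindstomach against small intestine at E14, with 0 called, RLE factors gave 1, no filter 1, the replicate block 6, DESeq2 3 and a fit of only these groups 7. For E12, with 5, DESeq2 gave 8 and only these groups 2. The difference between organs from E14 to E16, with 3, became 6 with the replicate block and 9 with only these groups. KO10 against hindstomach, with 3, became 5 with the block, and the difference between KO10 and KO15, with 3, became 5 with DESeq2. With only the groups compared, small intestine E14 against E12 went from 3 to 1, E18 against E16 from 2 to 5 and KO15 from 5 to 9. Without the E12 hindstomach and KO13 libraries, an alternative chosen after seeing the data, E18 against E16 gave 1. Adult KO in a fit of all 31 libraries went from 6 to 3.

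Leaving out 1 library at a time, the counts ranged from 2 to 5 in adult ileum, 4 to 5 in KO13, 4 to 4 in KO15, 3 to 6 in KO10 against hindstomach, 6 to 8 in KO10 against intestine and 2 to 6 in the difference between KO10 and KO15. They ranged from 6 to 7 for forestomach against hindstomach, 7 to 7 for forestomach against intestine, 7 to 7 for hindstomach E14 against E12, 3 to 4 for hindstomach E16 against E14, 3 to 6, 0 to 0 and 3 to 5 for hindstomach against intestine at E12, E14 and E16, and 2 to 3 for the difference between organs. In small intestine they were 2 to 4 from E12 to E14, 7 to 7 from E14 to E16 and 1 to 1 from E16 to E18. Of 84 called hormone gene results, 61 kept their call without any 1 library. DESeq2 lost 2 of the 84 (Gcg in KO10, adjusted p = 0.0712, and Tph1 from E16 to E18, 0.0582), RLE factors 1 (Gcg in KO10, 0.0611) and the replicate block 1 (Cck in adult ileum, 0.0716). Fits of only the groups compared lost 6 of 75, Cck and Nts in hindstomach against intestine at E12 (adjusted p = 0.46 and 0.292), Gip and Ghrl from E12 to E14 in small intestine (0.22 and 0.138) and Gcg and Sct in KO10 (0.19 and 0.123). The fit of all 31 libraries lost 3 of 6 in adult ileum, Cck (0.273), Pyy (0.0851) and Tph1 (0.0735).

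Same-numbered libraries did not deviate together over all genes (r from -0.08 to 0.10). This does not settle whether they share a litter or a day of processing. The block leaves KO10 replicate 3 without a partner. With RLE in place of TMM, the median log2 fold change over all genes shifted by 0.13 to 0.27 in 7 comparisons and by -0.12 in KO15. Depth limits Nts, Tph1, Sst and Gast most, since groups with 0 to 5 counts of them set several fold changes.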
